A study of Homo sapiens with 2 samples.

Results

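AEN, MDM2, MDM4 and CDKN1A are genes of the p53 pathway, and the mismatches read in their messenger RNA are described here for HEK-293T, an established line of human embryonic kidney origin. The cells carried a CIRTS-hADAR biosensor, an engineered RNA-targeting system joined to a human ADAR enzyme, and were sequenced with the small molecule ABA and without it. The biosensor was present in both conditions, each condition had 1 library, and the labels name 1 biological replicate, so no difference below has a replicate check and no p-value is given. ADAR enzymes turn adenosine into inosine, which sequencing reads as G, so the quantity followed is the A-to-G rate, the G reads over the A plus G reads summed over A positions.

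Members were taken by hg19 range on the plus strand, chromosome 15 from 89164527 to 89175518 for AEN, chromosome 12 from 69201952 to 69239324 for MDM2, chromosome 1 from 204485507 to 204527248 for MDM4 and chromosome 6 from 36644237 to 36655116 for CDKN1A. The set was chosen on readouts of these same libraries, since the 3' part of AEN had stood out by its A-to-G rate, so the A-to-G and depth values of all 4 genes are given as a description. The ranges held 2145 of 3518802 listed positions in the ABA library and 2740 of 4079392 in the library without ABA. Both libraries listed 2084 of them, out of 2861709 in all. Positions listed in both libraries are the basis of every rate unless stated otherwise. A position is listed only with at least 6 reads. An hg19 gene annotation was not used here, so exons and untranslated regions are not assigned. Listed positions at most 100 nt apart were joined into blocks instead, and the block that ends furthest 3' is called the last block, the others upstream blocks.

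The p53 protein is a transcription factor that answers DNA damage and other stress. CDKN1A encodes p21, an inhibitor of cyclin-dependent kinases that halts the cell cycle, and is a direct p53 target. AEN, apoptosis enhancing nuclease, is an exonuclease also induced by p53. MDM2 is a p53 target too, and its product is the ubiquitin ligase that marks p53 for degradation, while MDM4, a relative of MDM2, binds p53 and blocks its activity as a transcription factor. HEK-293T cells make the large T antigen of simian virus 40, which binds p53.

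Depth was modest throughout. The median depth of the positions listed with ABA was 13 reads in AEN, 16 in CDKN1A, 11 in MDM2 and 6 in MDM4, against 14.5, 19, 16 and 7 reads in the library without ABA. Intervals are exact (Clopper-Pearson) at 95% for rates and Newcombe's for differences. They cover counting error alone and are too narrow even for that, because 1 read covers several positions and copies made by PCR are not marked. The 0.1 percentage points used below to count a block as higher or lower equal less than 1 read in a block of 200 reads.

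AEN had the highest A-to-G rate of the 4 genes with ABA, and 26 of its 30 G reads lay in the last block, which holds 427 of its 538 positions. Over the whole gene, 30 of 7446 reads were G with ABA, 0.403% (0.272 to 0.575), against 1 of 8657 without ABA, 0.0116% (0.000292 to 0.0643). The difference was 0.391 percentage points (0.259 to 0.563). All nuclear positions together, from chromosomes 1 to 22 and X, had 0.0794% with ABA and 0.0410% without ABA, so that AEN stood at 5.08 times the nuclear rate with ABA and at 0.282 times without it. At the nuclear rates its reads would have held 5.91 G reads with ABA and 3.55 without.

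The last block of AEN, from 89173296 to 89175501, held 427 listed A positions. With ABA 26 of 6050 reads were G, and without ABA 0 of 6858, where 3 reads would be 0.0437%. The G reads lay on 16 positions, 3.75% of the block, against 0 positions without ABA. Among all nuclear positions 0.978% had a G read with ABA and 0.553% without. A single G read was found at 9 of the 16 positions, with shares from 4% to 16.7%, and no position had more than 3. The other 7 positions held 17 of the 26 G reads, with shares from 6.06% to 27.3%.

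Of the positions with more than 1 G read, 89175289 had the highest share, 3 of 11 reads with ABA (27.3%, 6.02 to 61.0), against 0 of 8 without ABA. At 89174361 there were 3 of 18 reads with ABA (16.7%, 3.58 to 41.4) and 0 of 21 without. Position 89173988 had 3 of 21 reads with ABA (14.3%, 3.05 to 36.3) and 0 of 21 without. At each of these positions the interval with ABA overlapped the interval without ABA. Position 89174010 had 2 of 16 reads with ABA and 0 of 12 without. Positions 89174456, 89175342 and 89174865 had 2 of 23, 2 of 22 and 2 of 33 reads with ABA, against 0 of 26, 0 of 16 and 0 of 41 without. The deepest of these, 89174865, thus had a share of 6.06% with ABA, and the interval without ABA reached up to 8.60%.

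**Figure D1:**
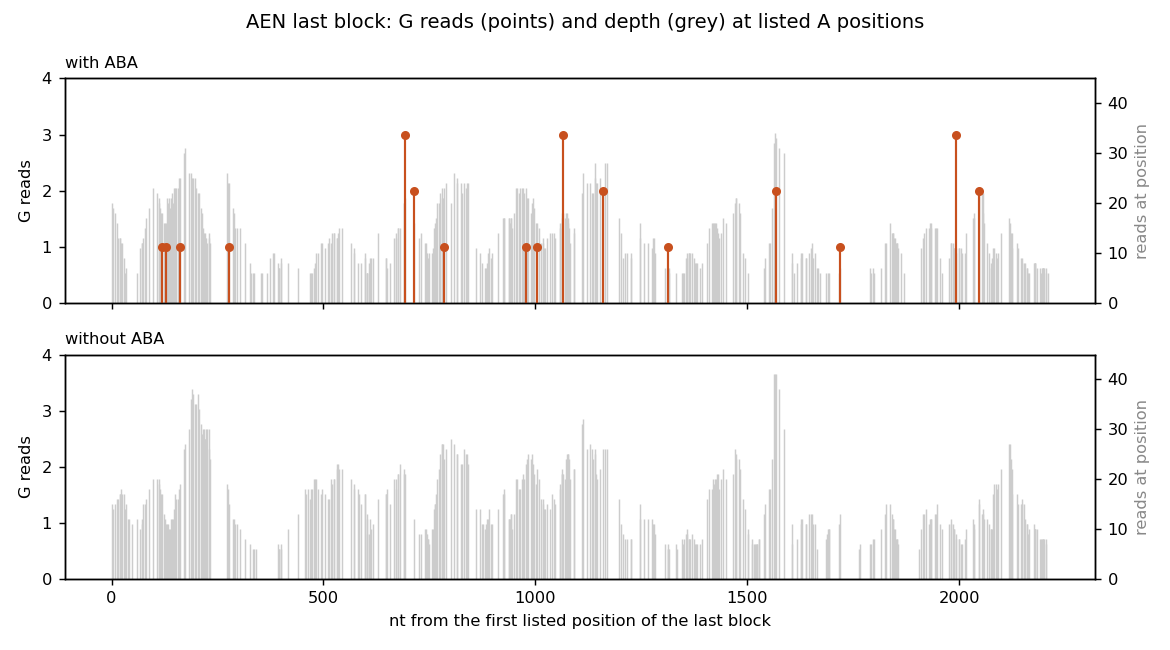
G reads (points, left axis) and depth in reads (grey lines, right axis) at each listed A position of the AEN last block, by distance in nt from its first listed position, in the ABA library (upper) and the library without ABA (lower). G reads with ABA stand at 16 positions along the whole block, at most 3 each, and none is seen without ABA at similar depth.

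G reads were present along the whole AEN block. In consecutive bins of 500 nt the rate with ABA was 0.272% (4 G reads), 0.422% (7), 0.479% (7), 0.708% (6) and 0.325% (2), with 0 G reads in every bin without ABA. The intervals of all 5 bins with ABA overlapped one another. Depth relative to all nuclear reads hardly varied over the bins, with a ratio of ABA over no ABA between 0.883 and 0.955. Leaving out the position with the most G reads gave a difference of 0.381 percentage points (0.242 to 0.572) for the last block, so no single position carried it. Of the 16 positions with a G read, 6 had another listed A directly beside them, against 167 of all 427 positions of the block (39.1%).

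Upstream of that block AEN had 2 blocks with 111 positions. Their A-to-G rate was 0.287% (0.0781 to 0.732) with ABA, 4 of 1396 reads, and 0.0556% (0.00141 to 0.309) without ABA, 1 of 1799 reads. The difference of 0.231 points had an interval that included 0 (-0.0813 to 0.681). The interval of the rate with ABA also overlapped the interval of the last block, and a difference between both parts was not tested. The division of AEN depends on the joining distance: with 50 nt the last block shrinks to a difference of 0.569 points (0.0533 to 1.33), and the upstream blocks, which then take in most of the 3' part, have 0.368 (0.231 to 0.549). In the first block, from 89169463 to 89169977, 3 G reads stood with ABA and 0 without. In the second, from 89172472 to 89172656, there was 1 in each library.

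A pair of AEN positions in the first block was of another kind. At 89169614 all 9 reads with ABA and all 12 without ABA were G, and at 89169858 all 10 with ABA and all 12 without. Positions where G made up 35% or more of the reads in a library are called variant-like and were left out of the rates. With both kept, the AEN difference was 0.368 points.

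CDKN1A also had more G reads with ABA, at a lower rate than AEN. Over the gene 10 of 6022 reads were G with ABA, 0.166% (0.0797 to 0.305), against 2 of 7812 without ABA, 0.0256% (0.00310 to 0.0925). The difference was 0.140 percentage points (0.0388 to 0.281), and the rate with ABA was 2.09 times the nuclear one. Each of the 10 G reads lay at a position of its own, 2.86% of the 350 positions, and each of the 2 without ABA did as well. No position had a G read in both libraries. Shares ran up to 7.69% at a position with ABA and up to 5% without.

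The last block of CDKN1A, from 36653528 to 36655094, had 9 of 5111 reads with ABA (0.176%, 0.0806 to 0.334) and 2 of 6780 without ABA (0.0295%, 0.00357 to 0.107). Of the 9 G reads, 6 fell in the second 500 nt of the block, where the rate was 0.442% (0.162 to 0.958) with ABA and 0 of 1594 reads without. The bins on either side had 1 G read each with ABA and 1 each without. Their intervals with ABA, up to 0.316% and 0.321%, overlapped that of the second bin. The short bin at the 3' end had 1 of 256 reads with ABA (0.391%, 0.00989 to 2.16) and 0 of 324 without. Upstream, the block from 36651950 to 36652322 had 1 of 911 reads with ABA and 0 of 1032 without.

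**Figure D2:**
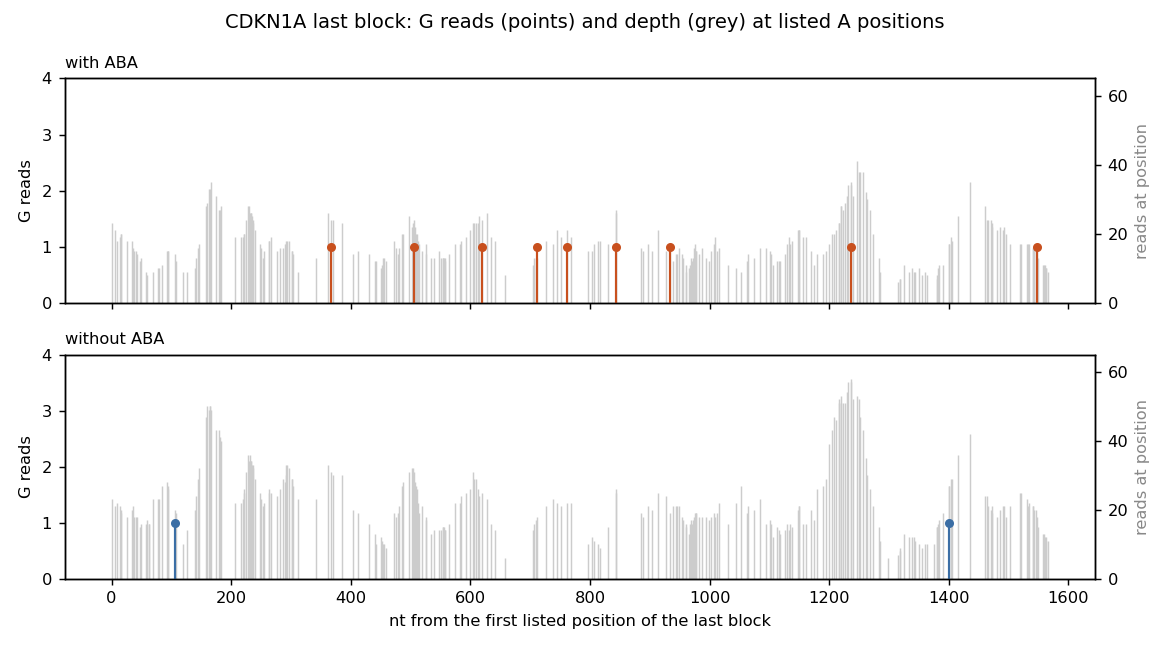
G reads (points, left axis) and depth in reads (grey lines, right axis) at each listed A position of the CDKN1A last block, by distance in nt from its first listed position, in the ABA library (upper) and the library without ABA (lower). All points stand at 1 G read, 9 of them with ABA and 2 without.

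MDM2 had fewer G reads with ABA, by a difference within counting error over the whole gene, and most of its G reads without ABA were packed into a short stretch near the 3' end. Over the gene 8 of 14495 reads were G with ABA, 0.0552% (0.0238 to 0.109), against 24 of 22668 without ABA, 0.106% (0.0678 to 0.157). The difference of -0.0507 points had an interval that included 0 (-0.109 to 0.0132). The rate stood at 0.695 times the nuclear one with ABA and at 2.58 times without. Positions with a G read were 7 with ABA, 0.592% of 1182, and 14 without ABA, 1.18%, and 3 of them were shared by both libraries.

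The stretch runs over 731 nt, from 69236998 to 69237728, and was drawn around the G reads after they were seen. At its 99 positions listed in both libraries 4 of 956 reads were G with ABA, 0.418% (0.114 to 1.07), against 19 of 1902 without ABA, 0.999% (0.602 to 1.56), a difference of -0.581 points (-1.19 to 0.164). A further 98 positions of it were listed without ABA alone, and at these 22 of 1229 reads were G, 1.79% (1.13 to 2.70), a variant-like position included. Nothing can be read about them with ABA, where they had fewer than 6 reads. With every listed position of each library taken, MDM2 as a whole had a difference of -0.103 points (-0.162 to -0.0365), to which positions that only the library without ABA lists contributed. A-to-C and A-to-T reads in the stretch were 0 in both libraries.

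Shares at single positions of this MDM2 stretch without ABA reached well above the highest of AEN and CDKN1A without ABA, 4.17% and 5%, variant-like positions aside. Position 69237043 had 8 of 24 reads without ABA (33.3%, 15.6 to 55.3) and was not listed with ABA. Position 69237056 had 1 of 13 reads with ABA (7.69%) and 5 of 49 without ABA (10.2%, 3.40 to 22.2). At 69237073 there were 0 of 14 reads with ABA and 4 of 47 without ABA (8.51%, 2.37 to 20.4). Position 69237558 had 2 of 8 reads with ABA (25.0%, 3.19 to 65.1) and 4 of 18 without ABA (22.2%, 6.41 to 47.6). Without ABA alone, position 69237010 had 3 of 7 reads, 69237013 had 2 of 6, 69237534 had 2 of 8 and 69237509 had 2 of 20.

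**Figure D3:**
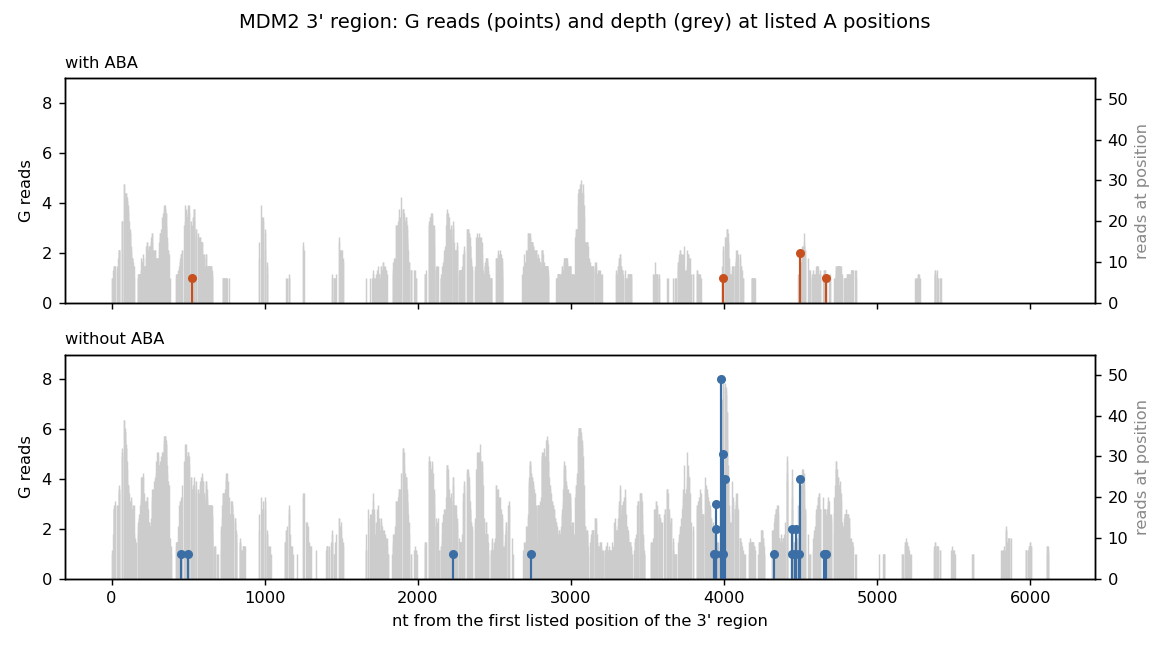
G reads (points, left axis) and depth in reads (grey lines, right axis) at each listed A position of the MDM2 3' region, by distance in nt from its first listed position, in the ABA library (upper) and the library without ABA (lower). Without ABA 19 of the points crowd into the G-rich stretch, with up to 8 G reads at a position. With ABA 4 points are seen, of at most 2 G reads, over fewer listed positions.

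Outside the stretch MDM2 had few G reads in either library. There the rate was 0.0295% (0.00805 to 0.0756) with ABA, 4 of 13539 reads, and 0.0241% (0.00782 to 0.0562) without ABA, 5 of 20766 reads. The difference was 0.00547 points (-0.0315 to 0.0539). As the stretch was drawn around G reads, low rates outside it follow in part from that choice. The last block of MDM2 by the 100 nt rule was small, 10 positions with 0 of 69 reads with ABA and 0 of 79 without, because the listing breaks up toward the 3' end. Joining over gaps of up to 600 nt, a distance chosen after the positions were seen, gave a 3' region from 69233065 to 69238477 with 0.0465% (0.0151 to 0.108) with ABA and 0.133% (0.0842 to 0.199) without ABA, a difference of -0.0863 points (-0.158 to -0.00987) whose interval leaves out 0. The 272 positions upstream of it had 3 of 3738 reads with ABA and 1 of 5346 without.

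**Figure D4:**
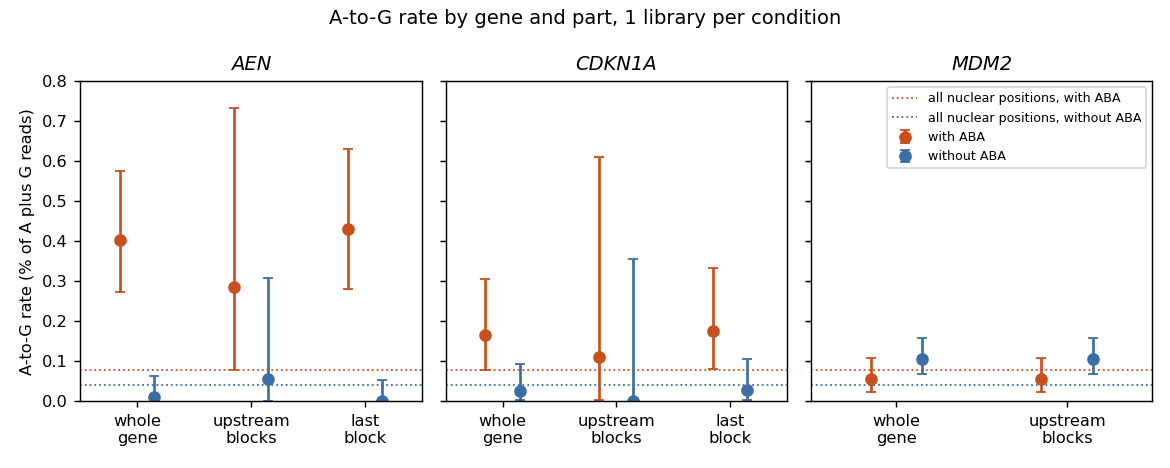
A-to-G rate in percent of A plus G reads for AEN, CDKN1A and MDM2, with ABA (orange) and without (blue), as points with 95% Clopper-Pearson intervals; dotted lines are the nuclear rates of 0.0794% with ABA and 0.0410% without. AEN with ABA stands above the other points of its panel, and MDM2 is lower with ABA than without, with intervals that overlap. MDM4 and the MDM2 last block, with 0 G reads and fewer than 100 reads, are not drawn.

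MDM4 was too shallow to compare. It had 14 listed positions with ABA and 121 without ABA, 12 of them in both, at no more than 8 reads with ABA and 11 without. All 77 reads with ABA and all 79 without ABA at the shared positions were A, for which 3 reads would be 3.90% and 3.80%. The 860 reads at all its positions without ABA held 0 G reads either. Within the range the minus strand listed 10 A positions of its own with ABA and 11 without.

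Read against the background of blocks, the members' counts are as follows. A block with at least 200 reads in each library was called higher at a rate difference of at least 0.1 points, which 18.9% of 43870 nuclear blocks met, and lower at the same size, which 7.69% met. Of the 19 such blocks in AEN, CDKN1A and MDM2, 6 were higher and 2 lower with ABA. The higher ones were 2 of 3 in AEN, 2 of 2 in CDKN1A and 2 of 14 in MDM2, and the upstream block of CDKN1A and both MDM2 blocks rested on 1 G read each. Both lower blocks overlapped the MDM2 stretch, 69237050 to 69237264 with 1 of 543 reads with ABA and 11 of 1125 without, and 69237551 to 69237928 with 3 of 768 and 8 of 1609. Since these values chose the set, the counts carry no weight as support.

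Nuclear blocks of a depth between 0.5 and 2 times that of the AEN last block in each library numbered 1056. Their median rate was 0.0749% with ABA and 0.0456% without, and 31 of them had a rate with ABA as high as the AEN block, itself included. A count of 0 G reads without ABA was found in 136. The blocks nearest to AEN in both rates, by the distance of their log2 rates over the 2 libraries among 1110 candidates, were chromosome 19 from 18417728 to 18418343 (minus strand), with 8 of 4067 reads with ABA and 0 of 3539 without, chromosome 19 from 48885849 to 48886580 (minus strand), with 8 of 5433 and 0 of 5029, and chromosome 2 from 203071252 to 203072039 (minus strand), with 6 of 4468 and 0 of 4868. All 3 had a lower rate with ABA than the 0.430% of AEN, the nearest of them 0.197%.

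Other mismatches were rare in the 4 genes. A-to-C and A-to-T reads together numbered 1 with ABA and 1 without ABA in AEN, 1 and 1 in CDKN1A, 3 and 1 in MDM2, and 0 and 0 in MDM4. The AEN rates of 0.0135% with ABA and 0.0116% without differed by 0.00193 points (-0.0531 to 0.0655), while its A-to-G difference was 0.391 points. In MDM2 they were 0.0207% with ABA and 0.00442% without, a difference of 0.0163 points (-0.00843 to 0.0566). All nuclear positions had 0.0172% with ABA and 0.0157% without.

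Read depth of AEN, CDKN1A and MDM2 was lower with ABA, most of all in MDM2. Per 1000000 nuclear reads at positions listed in both libraries, MDM2 had 362 with ABA and 551 without ABA, a ratio of 0.657 (0.643 to 0.671). CDKN1A had 150.4 with ABA and 190.0 without, a ratio of 0.792 (0.766 to 0.819), and AEN had 186.0 with ABA and 210.5 without, a ratio of 0.883 (0.856 to 0.911). MDM4 had 1.92 in each library, a ratio of 1.001 (0.722 to 1.39). Its 12 shared positions had at least 6 reads in both libraries. Per 1000000 nuclear reads at every position a library lists, MDM4 had 1.98 with ABA and 16.9 without. Of its positions, 109 were listed without ABA alone and 2 with ABA alone, at no more than 11 reads. Reads at positions with fewer than 6 go uncounted. The size of this drop thus depends on the listing limit and is not a fold change of the transcript. Over the nuclear blocks the 5th percentile of the ratio at positions listed in both libraries was 0.716 and the 95th 1.38. The median was 1.01. The ratios of AEN and CDKN1A lay between these percentiles and that of MDM2 below them. However, these blocks hold a median of 36 positions, against 538, 1182 and 350 in AEN, MDM2 and CDKN1A. In bulk RNA, fewer cells with a transcript and less of it per cell cannot be told apart, and with 1 library a condition the spread between cultures is unknown.

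Depth of MDM2 was lower with ABA in 17 of its 20 blocks. At the 5' end the blocks from 69202093 to 69202270 and from 69202990 to 69203063 had ratios of 1.07 and 1.01. Much further 3', the block from 69234026 to 69234082 had 1.00026, on 186 reads with ABA and 191 without. Blocks that were not lower were thus not confined to the 5' end. Among blocks with at least 200 reads in each library, depth was at least 1.5-fold lower with ABA in 2.63% of nuclear blocks. This held for 7 of the 14 MDM2 blocks, but for 0 of the 5 blocks of AEN and CDKN1A. Blocks of 1 gene share its transcripts and the same 2 libraries, so they are not independent of one another. Ratios over all 20 MDM2 blocks ran from 0.490 to 1.07 with a median of 0.714, and over the 14 blocks with at least 200 reads in each library from 0.490 to 1.01 with a median of 0.687. Among these 14, the lowest lay in 3 blocks near the 3' end, 0.512 from 69236600 to 69236913, 0.496 from 69237050 to 69237264 and 0.490 from 69237551 to 69237928. The last 2 of these hold the positions of the G-rich stretch that both libraries list, and the second of them runs past its end at 69237728. At those positions of the stretch the ratio was 0.516 (0.477 to 0.558). Its other 98 positions, listed without ABA alone, count in neither block. Low ratios were not confined to the 3' end once blocks under the limit of 200 reads were taken in. The block from 69214113 to 69214152 had 0.501 (0.404 to 0.617), on 135 reads with ABA and 277 without. The 5' block with a ratio of 1.07 was under that limit too, with 157 reads with ABA and 151 without. A trend of the ratio along MDM2 was not tested. Blocks of low depth are drawn toward a ratio of 1 by the rule that both libraries list the position. The part of this rule in the values near 1 was not tested.

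**Figure D5:**
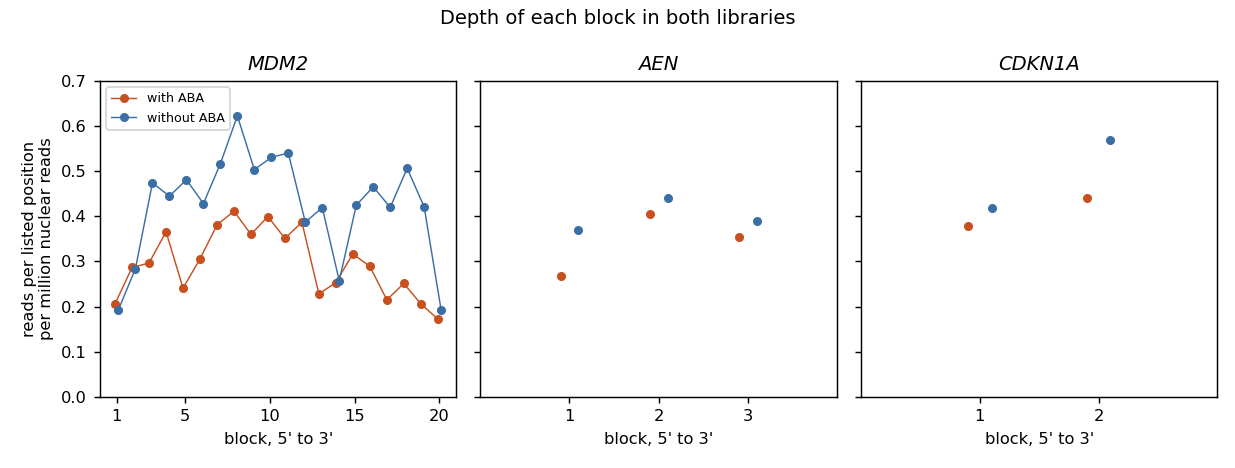
Reads per listed position per 1000000 nuclear reads in each block of MDM2, AEN and CDKN1A, numbered from 5' to 3', with ABA (orange) and without (blue); lines join the MDM2 blocks for the eye. MDM2 points with ABA lie below those without ABA in most blocks, with ratios down to 0.490.

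Per listed position, which allows genes of different length to be set side by side, the order of depth with ABA was CDKN1A, AEN, MDM2 and MDM4, at 0.430, 0.346, 0.306 and 0.160 reads per 1000000. Without ABA it was CDKN1A, MDM2, AEN and MDM4, at 0.543, 0.466, 0.391 and 0.160. MDM2 and AEN thus stood in opposite order in the libraries, at positions listed in both. Of the positions listed without ABA, this leaves out 460 of 1642 in MDM2 and 54 of 594 in AEN. The genes are therefore cut unequally, and the part of this in their order was not tested. MDM4 sits at the listing limit in both, so its values are set by that limit.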

How the data were processed

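RNA of HEK-293T cells was sequenced in 1 library with ABA and 1 without. Per the submitters' processing notes, cutadapt, HISAT2 and hg19 were used, with no versions. Deposited files give raw counts of reads with each base at each listed position, not normalized. Per the file headers, they list A positions of the plus strand and T positions of the minus strand with a single base read cutoff of 5, and the lowest depth found is 6 reads. Duplicate removal and the counting program are not given in the sources used here.

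Minus-strand counts were complemented. Rates use positions listed in both libraries without variant-like ones. Depth is per 1000000 nuclear reads at positions listed in both libraries, 40037927 with ABA and 41124763 without. These totals include variant-like positions, which the reads of the genes leave out. Depth over every listed position is per 1000000 nuclear reads at all positions a library lists, 44914317 with ABA and 50748953 without. Members and lists were chosen with earlier results of these data known. The positions to be named were those with at least 2 G reads in a library (up to 8 a gene outside AEN), and all AEN positions with a G read were to be described. The code for the block count was tried on simulated data, a check of the code only and not of the counts given here. No test was made between libraries. Ranges were named by the rule, and RefSeq (GRCh38) places the 4 symbols on the same chromosomes. No sequence is printed, and a wider list of p53 genes was not used here, as both need hg19. Tools were scipy 1.17.1, pandas 2.3.3, numpy 2.4.6 and matplotlib 3.10.9 under Python 3.11.15.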

Additional observations from a re-analysis of the deposited data

How the results depend on the processing

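Of 92 rates and depth ratios recomputed under other settings, 84 stayed inside the interval of the value reported. Among differences whose interval left out 0, 0 were reversed. Many settings could not move a value. MDM2, MDM4 and CDKN1A had 0 variant-like positions among those listed in both libraries, and other joining distances left the CDKN1A blocks unchanged. In MDM4 and the last block of MDM2 the intervals of the rate difference were several points wide. The 84 is therefore no measure of how firm the values are. The A-to-G difference of AEN as a whole ran from 0.352 to 0.533 percentage points and that of CDKN1A from 0.124 to 0.243, the highest in each with a minimum of 20 reads a position. Upstream of the MDM2 3' region drawn with a gap of 600 nt, chosen after seeing the data, the difference was 0.0616 points, against -0.0508 for the upstream blocks as reported, since the G-rich stretch then belongs to the 3' region. For MDM2 as a whole it was -0.0133 points with that minimum. Depth ratios over every listed position were 0.936 for AEN, 0.595 for MDM2, 0.845 for CDKN1A and 0.117 for MDM4. Such ratios count a position not listed in a library as 0 reads. In MDM4, 109 positions were listed without ABA alone and 2 with ABA alone. With the minimum of 20 reads the depth ratios were 0.726 for MDM2 and 0.745 for CDKN1A, and the last block of MDM2 alone gave 0.897. The count of 8274 nuclear blocks higher by at least 0.1 points became 1414 with at least 1000 reads in each library and 4210 on the plus strand alone, where fewer blocks were counted (7562 and 22329). MDM4 and the last block of MDM2 had no position with 20 reads and no G read to leave out, so those settings gave no value there. No paired analysis was possible because each condition had 1 library and no test was made.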

Other observations

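Listed positions near the 4 ranges were few. No plus-strand position was listed within 20000 nt on either side of the AEN range, although the AEN gene of RefSeq (GRCh38) spans 27599 nt and the range 10992. For MDM2, 5 positions lay beyond the 3' end, all in the library without ABA, the nearest at 4063 nt. CDKN1A had 13 positions before its range in each library, the nearest at 2509 nt, and MDM4 had 20 before its range with ABA and 0 without, the nearest at 7817 nt. On the minus strand, AEN listed 0 positions with ABA and 6 without, and MDM2 and CDKN1A listed 0 in both. MDM4 had 1 G read among 76 minus-strand reads with ABA and 0 of 94 without, below what 3 reads would give.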
